A study of Arabidopsis thaliana with 4 samples.

Results

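Lipid transfer protein genes were followed in whole wild-type Arabidopsis thaliana seedlings between 2 and 6 days post germination (dpg). The members are the genes whose deposited description contains "lipid transfer protein", with or without a hyphen. None of them carried an excluded word (arabinogalactan, extensin, proline-rich or GDSL), which left 97 of the 26784 genes in the table of reads per gene. Of these, 73 are described as superfamily proteins, 3 are glycolipid transfer proteins, which are a different kind of protein under a similar name, and 1 is a pseudogene.

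The study sequenced RNA from seedlings of the Col-0 accession, with 2 libraries at 2 dpg and 2 libraries at 6 dpg. Both ages shared genotype and growth: 1/2 Murashige and Skoog medium with 0.5% sucrose, cold and dark at 4 °C for 2 days, then 22 °C and a 12-h photoperiod. Nothing in the sources used here says that both libraries of an age are from separate cultures, so a p-value measures only the spread between these libraries. Whole seedlings mix cotyledons, hypocotyl and root, and how many were pooled is not given.

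Plant lipid transfer proteins are small proteins that are secreted into the cell wall. Their 8 conserved cysteines form disulphide bridges around a hollow that holds a lipid. In epidermal cells they are known for accompanying cutin monomers and wax to the cuticle, and in roots for a part in suberin. Some carry a C-terminal tail that is replaced by a glycosylphosphatidylinositol (GPI) anchor, which keeps them on the outer face of the plasma membrane. Others, such as AZI1 and EARLI1, have a proline-rich stretch before the cysteine domain and are known from systemic resistance and stress. Glycolipid transfer proteins instead work in the cytosol and move glycolipids between membranes.

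The cysteine pattern was checked in the RefSeq coding sequences of the TAIR10.1 assembly, which were found for 96 members. In the pattern the cysteines in the middle form an adjacent pair, and a single residue separates the fifth from the sixth. The search set limits on the spacing between cysteines. It found the pattern in 88 members and not in the other 9, the 3 glycolipid transfer proteins among them. The pseudogene, also counted there, has no coding sequence to check. The 88 proteins run from 94 to 1480 residues with a median of 129.5. The stretch from the adjacent pair to the sixth cysteine is shown for the genes on which the results turn, because it is the shared core and shows how the subgroups differ in it. Capitals mark the codons of these 4 cysteines, and each stretch lies in 1 exon. The first group holds the abundant secreted proteins and the GPI-anchored LTPG1.
LTP1: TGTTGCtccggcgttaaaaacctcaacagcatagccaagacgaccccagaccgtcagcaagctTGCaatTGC
LTP2: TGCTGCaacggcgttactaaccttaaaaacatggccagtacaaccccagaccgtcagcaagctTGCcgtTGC
LTP5: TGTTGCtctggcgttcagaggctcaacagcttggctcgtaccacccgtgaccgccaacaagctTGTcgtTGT
LTPG1: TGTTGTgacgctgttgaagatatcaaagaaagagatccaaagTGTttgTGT
AT2G45180: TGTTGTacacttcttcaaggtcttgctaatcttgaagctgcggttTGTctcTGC
The second group comes from 2 gene clusters of chromosome 4 and from AT1G62510, which rose.
AZI1: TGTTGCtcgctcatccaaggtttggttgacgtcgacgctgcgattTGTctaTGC
AT4G12510: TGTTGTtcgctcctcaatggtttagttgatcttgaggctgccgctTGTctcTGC
AT4G12520: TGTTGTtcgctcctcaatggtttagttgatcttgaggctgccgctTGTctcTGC
AT4G22485: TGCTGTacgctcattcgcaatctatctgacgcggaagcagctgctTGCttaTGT
AT4G22505: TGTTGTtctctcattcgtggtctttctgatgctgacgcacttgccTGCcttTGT
AT4G22513: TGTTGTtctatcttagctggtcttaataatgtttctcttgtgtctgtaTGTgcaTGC
AT4G22517: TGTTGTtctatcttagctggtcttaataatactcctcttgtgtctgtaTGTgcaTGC
AT4G22520: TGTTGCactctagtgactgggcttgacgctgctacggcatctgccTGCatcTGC
AT1G62510: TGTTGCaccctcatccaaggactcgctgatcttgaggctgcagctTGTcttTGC
LTP1, LTP2 and LTP5 have 19 codons between the pair and the fifth cysteine, LTPG1 has 12, AT4G22513 and AT4G22517 have 14, and the others shown have 13. The LTP1 stretch is at chr2:16130574-16130645 on the plus strand and that of AT1G62510 at chr1:23136740-23136793 on the minus strand. AT4G12510 and AT4G12520 have the same 54 bases, with 0 differences. AT4G22485 and AT4G22505 differ at 15 of 54 bases, AT4G22513 and AT4G22517 at 3 of 57, and the neighbours LTP1 and LTP2 at 14 of 72.

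Library totals recovered from the deposited FPKM ranged from 18330153 to 26570983 reads. After TMM scaling of these totals 3 reads correspond to 0.123 to 0.154 CPM, read counts scaled to library size. The table ends on chromosome 5, and genes further along, LTP3 and LTP4 among them, were not analysed here. The 3 mesophyll markers summed to 44925 to 47162 FPKM, the authors' measure scaled to gene length and library size, at 2 dpg and to 27611 to 27944 FPKM at 6 dpg. Markers of root hair, root endodermis and shoot epidermis were detected in all 4 libraries. The markers of embryo remnants, most of them seed storage and oil body genes, summed to 1.40 to 7.47 FPKM at 2 dpg and 0.693 to 1.55 FPKM at 6 dpg. Some differed between the 2 dpg libraries, with 1 and 58 reads for SESA3 and 2 and 30 for OLEO1. SESA4 had 21 and 15 reads at 2 dpg and 0 and 3 at 6 dpg, while M17 had 2 and 11, then 13 and 18. At 6 dpg M17 was at 0.574 and 0.986 FPKM, a large part of the summed markers. SESA1 had 0 reads in replicate 1 of both ages.

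Between 2 and 6 dpg most lipid transfer protein genes with enough reads for a test were lower, while a smaller number rose, some from almost no reads. Of the 97 members, 54 had enough reads, of which 33 were lower at 6 dpg, 16 were higher and 5 did not pass the threshold (edgeR's quasi-likelihood test, Benjamini-Hochberg adjusted p under 0.05). The background was broad, with 56.6% of all 16160 tested genes called, 28.3% as higher and 28.4% as lower. The libraries of the ages did not overlap for 52 of the 54 members, 34 with both 2 dpg libraries above and 18 with both 6 dpg libraries above, against 80.6% of all tested genes without overlap. Changes of at least 2-fold were called in 22 members that fell and 13 that rose, against 12.5% and 11.6% of all tested genes. Both the members without overlap and the 2-fold changes include AT1G73780, AT4G12490 and the 5 largest rises. The members without overlap also include AT1G73550 and AT4G22610. All of these passed the filter on low counts only through the age at which they are high, so they had to differ. In bulk RNA from whole seedlings, fewer cells of a type and less RNA per cell cannot be told apart.

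The median log2 fold change was -0.84 over the 54 members and -0.00 over all tested genes. Members are short, and short genes as a whole were lower at 6 dpg: the 3280 tested genes of 500 to 1000 bases had a median of -0.28, and the 40 tested members in that range had -0.78. With offsets that remove the trend on gene length from each library, the members' median was -0.47, with 26 lower and 18 higher. Together the members took 0.810% of the reads in replicate 1 and 0.704% in replicate 2 at 2 dpg. At 6 dpg these shares were 0.610% and 0.581%. The share was lower in both 6 dpg libraries than in either 2 dpg library.

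**Figure D1:**
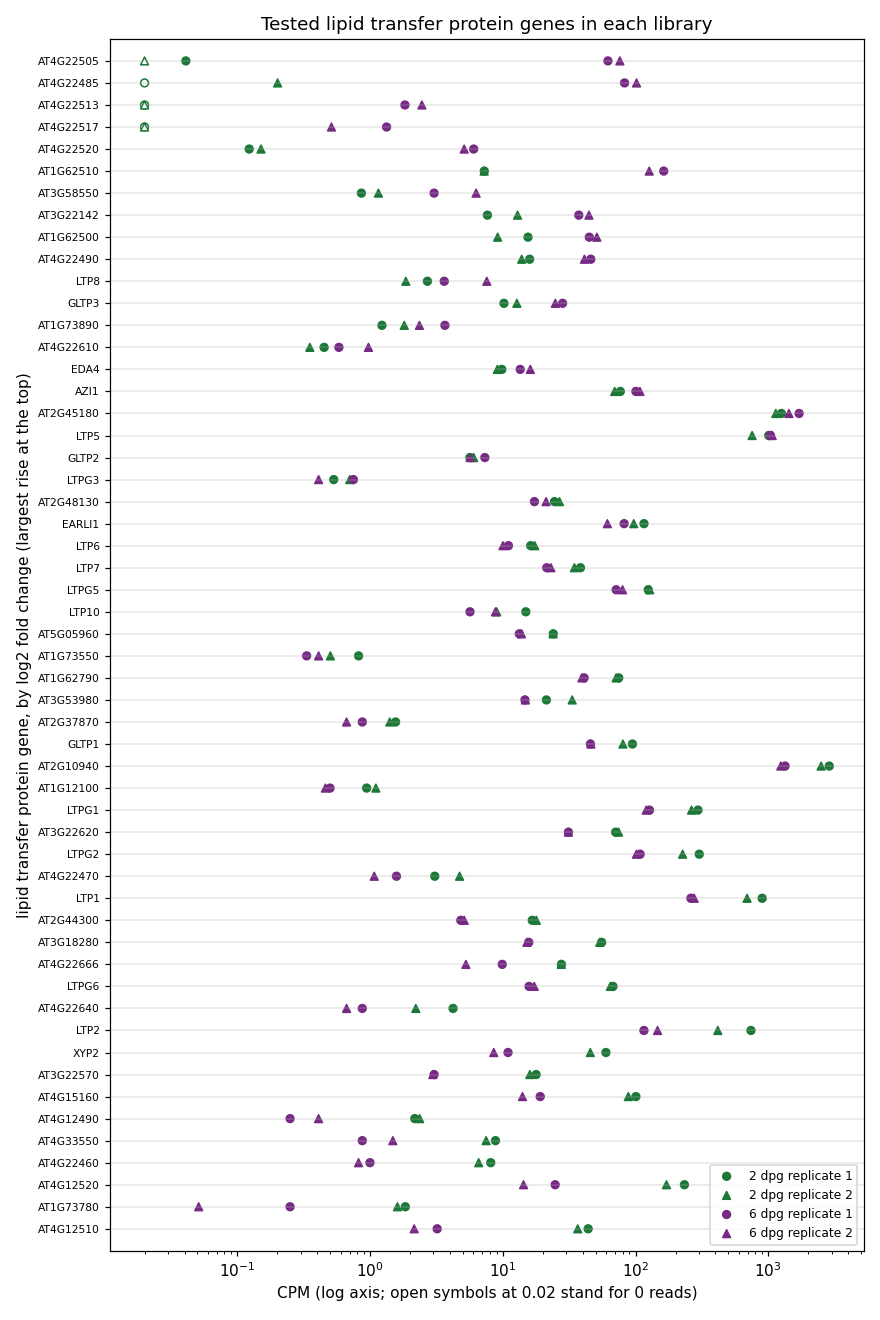
CPM of the 54 tested lipid transfer protein genes in each library on a log axis, 1 gene per line, green for 2 dpg and purple for 6 dpg, circles for replicate 1 and triangles for replicate 2, with open symbols for 0 reads. The ages separate in all lines except those of GLTP2 and LTPG3, and the 5 genes at the top had at most 6 reads in the 2 dpg libraries together.

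**Figure D2:**
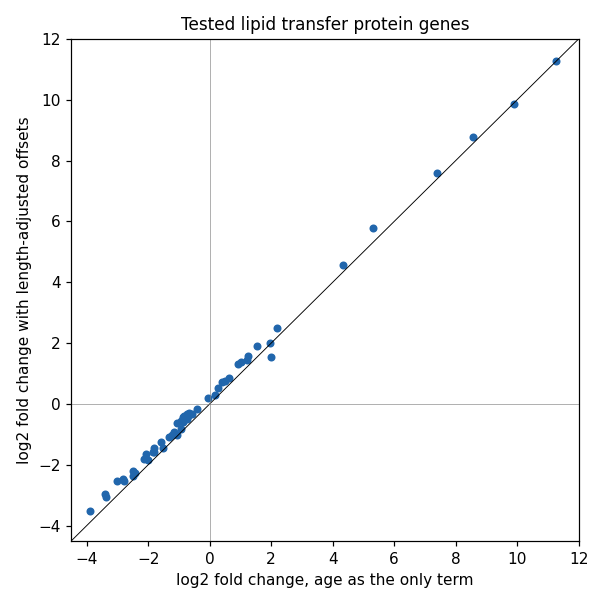
Log2 fold change of each tested member in the fit with age as the only term (x axis) and with offsets that remove the trend on gene length (y axis), with a line of equal values. Most members lie slightly above the line, and their median moves from -0.84 to -0.47.

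A few genes held most of the members' transcripts. Per gene length, the 6 highest members made up 75.9 to 80.5% of the members' summed FPKM in each library. AT2G10940, a protein with a proline-rich stretch, stood at 1747 and 1595 FPKM in the 2 dpg libraries and at 933 and 874 FPKM in the 6 dpg libraries. AT2G45180, a short protein, stood at 1701 and 1624 FPKM and then at 2659 and 2249 FPKM. At 2 dpg the levels of these 2 genes overlap, and at 6 dpg both libraries put AT2G45180 above AT2G10940.

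LTP5 followed at 1232 and 971 FPKM at 2 dpg, which overlaps LTP1, at 1170 and 948 FPKM. At 6 dpg these genes lay apart, with LTP5 at 1460 and 1518 FPKM and LTP1 at 391 and 417 FPKM. LTP2 came next with 1015 and 601 FPKM at 2 dpg, which overlaps both, and 182 and 233 FPKM at 6 dpg. By mean FPKM, AT2G45180 ranked 8 among all genes of the table at 6 dpg, while LTP1 moved from rank 60 to rank 184. LTPG1 and LTPG2 had mean levels of 335 and 314 FPKM at 2 dpg, with overlapping libraries, and 167 and 141 FPKM at 6 dpg, without overlap.

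**Figure D3:**
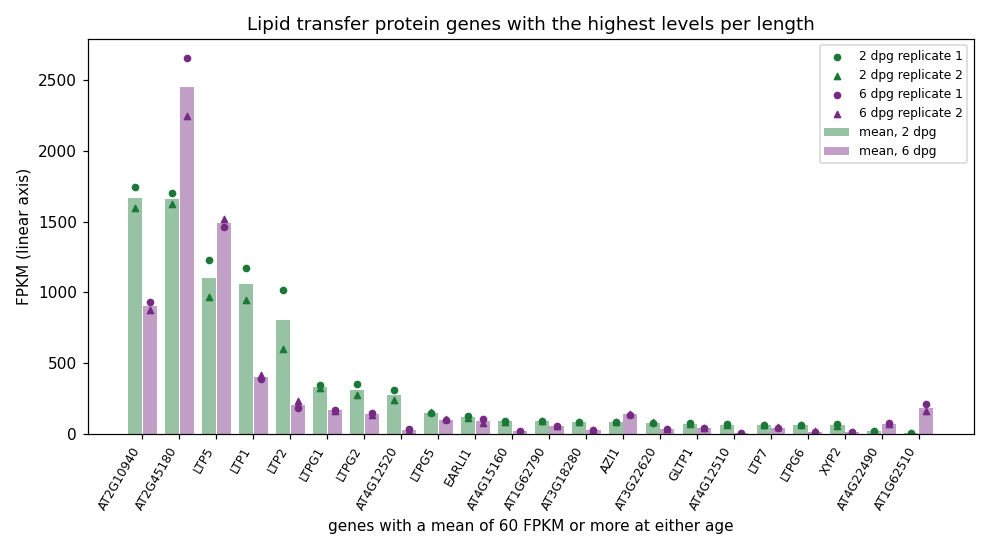
Mean FPKM (bars, linear axis) and the value of each library (circles, replicate 1; triangles, replicate 2) for the members with a mean of 60 FPKM or more at either age. AT2G45180 and LTP5 are the highest at 6 dpg, while AT2G10940, LTP1 and LTP2 are lower there than at 2 dpg.

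Secreted proteins of the LTP1 type are known as abundant proteins of epidermal cell walls. Of the 10 members of this group, 7 were tested, of which 5 fell, LTP8 rose and LTP5 did not pass the threshold, with a median log2 fold change of -0.72. LTP1 was at 899 and 692 CPM in the 2 dpg libraries and at 261 and 276 CPM in the 6 dpg libraries (log2 fold change -1.57, SE 0.15, adjusted p = 5.71e-05). Its neighbour LTP2 was at 741 and 417 CPM and then at 116 and 147 CPM (log2 fold change -2.14, SE 0.25, adjusted p = 0.00016). The 2 dpg libraries of LTP2 lie far apart, with replicate 1 the higher, but both lie above both 6 dpg libraries. LTP1 and LTP2 encode proteins with 68.6% identity and share no 50-base word.

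LTP5 was at 1008 and 756 CPM at 2 dpg and at 1039 and 1071 CPM at 6 dpg (log2 fold change 0.26, SE 0.15, adjusted p = 0.176). The ages do not overlap, but the gap between the 2 dpg libraries is larger than the gap between the ages. Without 2 dpg replicate 1 the log2 fold change was 0.49 with an adjusted p of 0.00286, and with length-adjusted offsets it was 0.54 with an adjusted p of 0.00892.

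Among the other secreted members, LTP7 fell from 38.5 and 34.6 CPM to 21.4 and 23.0 CPM (log2 fold change -0.72, SE 0.12, adjusted p = 0.00118). LTP6 went from 16.2 and 17.4 CPM to 11.03 and 10.03 CPM (log2 fold change -0.67, SE 0.13, adjusted p = 0.00273). LTP10 went from 14.9 and 8.997 CPM to 5.66 and 8.80 CPM (log2 fold change -0.74, SE 0.27, adjusted p = 0.0425). In none of these 3 genes do the ages overlap, but in LTP10 they nearly touch. The calls of LTP6 and LTP10 were lost with length-adjusted offsets, with adjusted p-values of 0.0737 and 0.287, and that of LTP10 also without 2 dpg replicate 1 (adjusted p = 0.323) or 6 dpg replicate 1 (adjusted p = 0.205).

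LTP8 was the secreted member that rose, from 2.70 and 1.86 CPM to 3.62 and 7.57 CPM (log2 fold change 1.26, SE 0.36, adjusted p = 0.0151). The 6 dpg libraries lie far apart. Without 6 dpg replicate 2 the log2 fold change was 0.66 (adjusted p = 0.108), and without 2 dpg replicate 2 it was 1.02 (adjusted p = 0.0632). The remaining 3 members of the group had few reads. LTP12 had 0 reads in every library, LTP9 had 1 read in 6 dpg replicate 1, and LTP11 had 8 and 7 reads at 2 dpg and 3 and 2 at 6 dpg.

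GPI-anchored members sit on the plasma membrane. They were taken here from a fixed list, without a check for an anchor signal, and other members with a tail after the pattern are not on it. Of the 11 members on the list 10 were tested. Of these 7 fell, 2 rose and LTPG3 did not pass the threshold, with a median log2 fold change of -0.96. LTPG1 and LTPG2 are known for the export of cuticular wax. LTPG1 went from 295 and 264 CPM to 127 and 120 CPM (log2 fold change -1.175, SE 0.12, adjusted p = 7.96e-05). LTPG2 went from 302 and 226 CPM to 108 and 102 CPM (log2 fold change -1.33, SE 0.15, adjusted p = 0.000143). In both genes the 6 dpg libraries lie close together and far below those of 2 dpg.

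XYP2, a xylogen protein, a kind named for its part in xylem differentiation, fell from 59.8 and 45.6 CPM to 10.9 and 8.55 CPM (log2 fold change -2.43, SE 0.18, adjusted p = 1.75e-05). LTPG6 fell from 67.6 and 64.6 CPM to 15.8 and 17.2 CPM (log2 fold change -2.003, SE 0.12, adjusted p = 9.4e-06). AT2G44300 had a log2 fold change of -1.80 and LTPG5 one of -0.74, again without overlap between the ages. AT2G48130 went from 24.5 and 26.7 CPM to 17.3 and 21.2 CPM (log2 fold change -0.42, SE 0.14, adjusted p = 0.0293). Its call was lost with DESeq2 (adjusted p = 0.0803), with length-adjusted offsets (adjusted p = 0.394) and without 2 dpg replicate 2 (adjusted p = 0.0588) or 6 dpg replicate 1 (adjusted p = 0.289).

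EDA4, next to AT2G48130 on chromosome 2, rose from 9.83 and 9.10 CPM to 13.5 and 16.1 CPM (log2 fold change 0.64, SE 0.15, adjusted p = 0.00587). Without 6 dpg replicate 2 its adjusted p was 0.0575. AT3G58550 rose from 0.860 and 1.16 CPM to 3.04 and 6.29 CPM (log2 fold change 2.203, SE 0.39, adjusted p = 0.00152). The 6 dpg libraries of AT3G58550 differ widely, and without replicate 2 the log2 fold change was 1.61. LTPG3 lay between 0.409 and 0.749 CPM in all libraries with overlapping ages, and LTPG4 had 0 reads.

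Genes of the family often lie side by side. The members form 5 clusters of 3 or more neighbours, with 27 members in all, a further 16 lie in pairs and 54 stand alone. In the cluster on chromosome 4 from AT4G22460 to AT4G22520, at chr4:11839160-11858970 by the deposited coordinates, all 8 genes were tested, of which 6 rose and the 2 at its low-coordinate end fell. It includes the 5 members with the largest fitted rises. These passed the filter on low counts only through the 6 dpg libraries, so they had to differ. No adjusted p-value is given for them.

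AT4G22505 had 1 and 0 reads in the 2 dpg libraries and 1489 reads in each 6 dpg library, or 62.0 and 76.2 CPM at 6 dpg. Scaled to library size, the ratio of 6 to 2 dpg was 3028, with a 95% exact interval of 543 to 119648 for counting error only. AT4G22485 had 0 and 4 reads at 2 dpg and 1987 and 1988 reads at 6 dpg, a ratio of 1011 with an interval of 394 to 3711. Both genes were at or near 0 reads in both 2 dpg libraries and well detected in both 6 dpg libraries. By fitted log2 fold change they ranked 2 and 3 from the top among the 16160 tested genes.

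The proteins of this pair are long for the family, with 530 residues for AT4G22505 and 656 for AT4G22485. Proline makes up 48.8% and 46.1% of the residues before their cysteine pattern. The proteins are 47.9% identical. AT4G22490, which lies between them, encodes a short protein of 120 residues and rose from 15.9 and 13.9 CPM to 46.0 and 41.2 CPM (log2 fold change 1.55, SE 0.13, adjusted p = 3.6e-05).

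AT4G22513 had 0 reads in both 2 dpg libraries and 44 and 48 reads at 6 dpg. It was at least 15.6-fold higher at 6 dpg, where the 0 reads of each 2 dpg library are set to a floor of 3. AT4G22517 had 0 reads at 2 dpg and 32 and 10 reads at 6 dpg, at least 7.12-fold higher by the same floor, with a wide gap between its 6 dpg libraries. These 2 genes are 95.7% identical in coding sequence. AT4G22520 had 3 reads in each 2 dpg library and 145 and 100 at 6 dpg, a ratio of 41.5 with an interval of 18.8 to 114.

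At the low-coordinate end the direction was opposite. AT4G22460 encodes 8 cysteines, but not within the spacing limits of the pattern search. It fell from 8.11 and 6.58 CPM to 0.999 and 0.819 CPM (log2 fold change -3.001, SE 0.25, adjusted p = 3.16e-05). AT4G22470, next to AT4G22485, fell from 3.07 and 4.72 CPM to 1.58 and 1.07 CPM (log2 fold change -1.52, SE 0.32, adjusted p = 0.00327). AT4G22470 also has a proline-rich stretch, and it holds the pattern 2 times, with 20 cysteines in all.

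Most genes of this cluster overlap a RefSeq gene on the opposite strand, and the library kit named in the labels does not mark strand, so reads of either strand cannot be told apart. Of all 50-base words of the gene, 90.5% in AT4G22505, 90.7% in AT4G22485, 86.6% in AT4G22470 and 68.2% in AT4G22460 also lie in such a gene. For AT4G22520 the share is 100%, and the opposite gene AT4G22530 was at 11.47 and 10.76 CPM at 2 dpg and 7.61 and 9.16 CPM at 6 dpg (adjusted p = 0.0508). By the deposited coordinates AT4G22520 and AT4G22530 do not overlap, so these CPM were counted outside AT4G22520. AT4G22510, opposite AT4G22513 and AT4G22517, had 0 reads in the table. By the deposited coordinates it covers 57.2% of AT4G22513 and 57.8% of AT4G22517. Reads from the shared parts may have been left out of the counts, so its 0 reads do not show that it was silent. AT4G22490 overlaps no such gene.

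**Figure D4:**
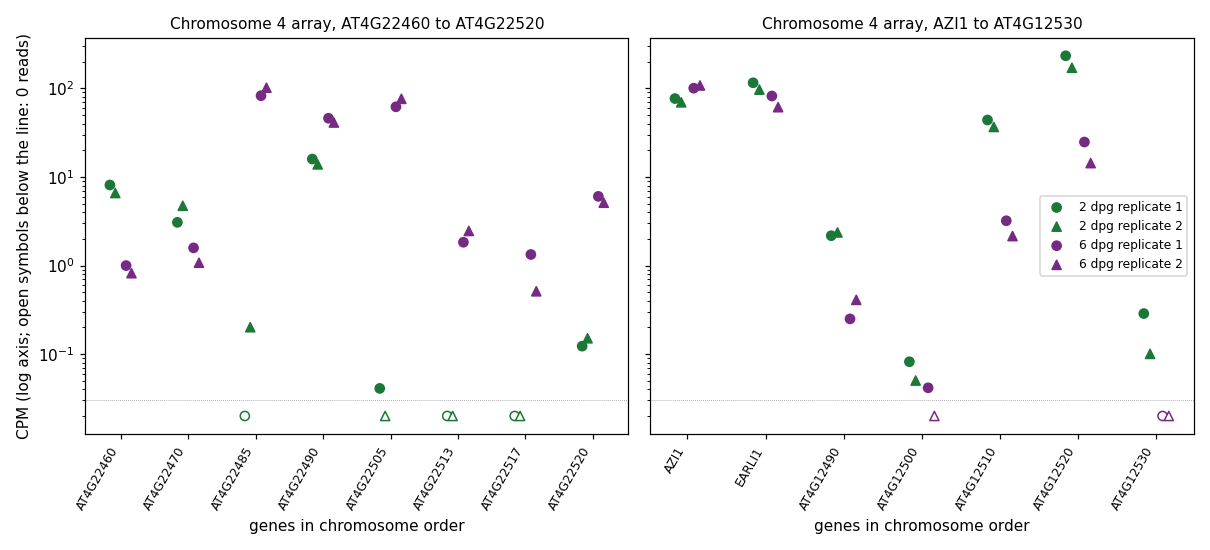
CPM in each library (log axis) of the genes in 2 clusters of chromosome 4, in chromosome order, green for 2 dpg and purple for 6 dpg, circles for replicate 1 and triangles for replicate 2, with open symbols below the dotted line for 0 reads. In the left cluster AT4G22460 and AT4G22470 are lower at 6 dpg and the other 6 genes are higher, while in the right cluster AZI1 is higher and the other 4 tested genes are lower.

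The other large cluster of chromosome 4 runs from AZI1 to AT4G12530 at chr4:7401109-7428563 and holds 7 members. Of its 5 tested genes, 4 fell and AZI1 rose, with a median log2 fold change of -2.79. AZI1 is known from the priming of systemic resistance by azelaic acid. It rose from 76.8 and 69.6 CPM to 101 and 108 CPM (log2 fold change 0.51, SE 0.12, adjusted p = 0.00564), with an adjusted p of 0.071 without 6 dpg replicate 2. EARLI1, first known as induced by aluminium, encodes a protein 85.7% identical to AZI1 and went from 116 and 96.9 CPM to 82.1 and 61.4 CPM (log2 fold change -0.57, SE 0.16, adjusted p = 0.0147). Its call was lost with length-adjusted offsets (adjusted p = 0.0671) and without 6 dpg replicate 2 (adjusted p = 0.173).

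AT4G12510 and AT4G12520 showed the steepest falls of the cluster. AT4G12520 went from 234 and 171 CPM to 24.8 and 14.3 CPM (log2 fold change -3.36, SE 0.26, adjusted p = 2.15e-05). AT4G12510 went from 44.0 and 36.7 CPM to 3.20 and 2.15 CPM (log2 fold change -3.89, SE 0.20, adjusted p = 3.26e-06), rank 53 from the lowest among all tested genes. Both encode the same protein sequence, and 51.8% of the 50-base words of AT4G12510 also occur in AT4G12520. Reads from those stretches could be split between the copies or lost, so the level of each is uncertain.

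The copies extend upstream of the genes. The 250 bases before each RefSeq start are shown because the genes moved together, with the letters TATAAA in capitals.
AT4G12510 upstream: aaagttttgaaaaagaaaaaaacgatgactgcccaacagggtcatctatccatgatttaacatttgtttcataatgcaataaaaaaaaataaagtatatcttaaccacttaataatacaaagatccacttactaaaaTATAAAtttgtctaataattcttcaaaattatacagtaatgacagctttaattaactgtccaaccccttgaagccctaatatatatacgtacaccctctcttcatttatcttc
AT4G12520 upstream: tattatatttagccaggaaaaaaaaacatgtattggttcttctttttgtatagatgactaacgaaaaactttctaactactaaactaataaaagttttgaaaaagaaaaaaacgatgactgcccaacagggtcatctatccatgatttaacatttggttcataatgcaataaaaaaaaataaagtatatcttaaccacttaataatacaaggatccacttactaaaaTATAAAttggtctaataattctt
The AT4G12510 window is at chr4:7417874-7418123 and the AT4G12520 window at chr4:7421829-7422078, both on the minus strand of TAIR10.1. In the best local alignment, 157 of 160 bases are the same, and the aligned stretch ends at the start of AT4G12520 but 90 bases before the start of AT4G12510. The annotated starts are thus offset within a shared stretch. Elsewhere, 166 of 199 aligned upstream bases are the same between AT4G22513 and AT4G22517, and 78 of 103 between AT4G22485 and AT4G22505.

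AT4G12490, a proline-rich relative, fell from 2.17 and 2.36 CPM to 0.250 and 0.409 CPM (log2 fold change -2.79, SE 0.38). It had 53 and 47 reads at 2 dpg and 6 and 8 at 6 dpg. It passed the filter on low counts only through the 2 dpg libraries, so it had to differ. Of its 50-base words, 31.6% lie in an opposite-strand RefSeq gene and 6.78% in a copy elsewhere, mostly AT4G12500. AT4G12500 and AT4G12530 had too few reads to test, with 2 and 1 reads at 2 dpg and 1 and 0 at 6 dpg for AT4G12500 and 7 and 2, then 0 and 0 for AT4G12530. Beyond the cluster lie AT4G12545 and AIR1, which the description rule does not take. AIR1 is known as an auxin-induced gene of root cultures. AT4G12545 fell from 31.9 ± 5.80 to 2.39 ± 0.852 CPM (SD, n = 2; log2 fold change -3.71, edgeR adjusted p = 9.48e-06) and AIR1 from 6.77 ± 0.333 to 2.01 ± 0.811 CPM (log2 fold change -1.73, edgeR adjusted p = 0.000663).

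In the other 3 clusters no tested member was called as higher. On chromosome 3, at chr3:8000515-8009590, AT3G22570 fell from 17.8 and 15.98 CPM to 3.04 and 2.97 CPM (log2 fold change -2.49, SE 0.16, adjusted p = 1.12e-05). Its neighbours LTPG5 and AT3G22620 fell as well, AT3G22620 with a log2 fold change of -1.22, and AT3G22580 had 0 reads. Of the words of AT3G22570, 82.7% lie in a RefSeq gene on the opposite strand.

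In the cluster from AT4G22610 to AT4G22666, AT4G22640 and AT4G22666 fell, with log2 fold changes of -2.06 and -1.85. AT4G22610 lay at 0.352 to 0.972 CPM and did not pass the threshold (log2 fold change 0.91). It passed the filter on low counts only through the 6 dpg libraries, so a difference was favoured in advance. Its call with length-adjusted offsets is thus no support for a rise. The 3 genes AT1G43665, AT1G43666 and AT1G43667 had 1 read among them.

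Of the other superfamily members, 65 in all, 29 were tested, of which 16 fell and 11 rose with a median log2 fold change of -0.86. This group includes the cluster from AT4G22460. Outside the clusters, AT1G62510 rose from 7.25 and 7.24 CPM to 163 and 127 CPM (log2 fold change 4.32, SE 0.17, adjusted p = 2.29e-06). Its 2 dpg libraries are nearly equal and both 6 dpg libraries lie far above them. Its chromosome 1 neighbour AT1G62500 rose from 15.5 and 9.15 CPM to 44.9 and 51.1 CPM (log2 fold change 1.95, SE 0.21, adjusted p = 0.000117). Of the words of AT1G62510, 41.0% lie in an opposite-strand RefSeq gene.

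AT3G22142 encodes the longest protein with the pattern, with 1480 residues and 39.0% proline before the pattern. It rose from 7.66 and 12.9 CPM to 37.4 and 44.6 CPM (log2 fold change 2.003, SE 0.22, adjusted p = 0.000114), and 90.1% of its words lie in an opposite-strand RefSeq gene. AT2G45180 rose from 1256 and 1139 CPM to 1706 and 1430 CPM (log2 fold change 0.39, SE 0.14, adjusted p = 0.0358). This call was lost with upper quartile factors (adjusted p = 0.0597), with the replicate number as a block (adjusted p = 0.0606) and without 6 dpg replicate 1 (adjusted p = 0.381) or replicate 2 (adjusted p = 0.0785).

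Among the falls outside the clusters, AT1G73780 went from 1.84 and 1.61 CPM to 0.250 and 0.0512 CPM, or from 77 to 7 reads over both libraries (log2 fold change -3.39, SE 0.52). It passed the filter on low counts only through the 2 dpg libraries, so it had to differ. With so few 6 dpg reads, its log2 fold change was -4.93 without 6 dpg replicate 1 and -2.76 without replicate 2. AT4G33550 fell from 8.81 and 7.49 CPM to 0.874 and 1.48 CPM (log2 fold change -2.81, SE 0.27, adjusted p = 5.52e-05). In AT4G33550 every 2 dpg library lay above every 6 dpg library. AT4G15160, with 48.3% proline before its pattern, fell from 101 and 88.3 CPM to 19.1 and 14.1 CPM (log2 fold change -2.50, SE 0.17, adjusted p = 1.17e-05). AT2G10940 fell from 2880 and 2500 CPM to 1338 and 1243 CPM (log2 fold change -1.06, SE 0.13, adjusted p = 0.000222), again without overlap.

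By the shape of the protein, 6 of the 11 tested members with at least 20% proline before the pattern rose and 5 fell, with a median log2 fold change of 0.51. Of 24 tested short members 16 fell and 6 rose, with a median of -0.85. Of 15 tested members with a tail of at least 40 residues after the pattern 10 fell and 3 rose, with a median of -0.86. These limits were set with the values known, and no difference between shapes was tested. AT1G62510 lies just inside the proline limit with 22.7%, and AT2G45180 just outside with 17.6%. The proline-rich members are also longer, with a median gene length of 1210 bases against 544 for the short ones, and the length trend at their lengths was -0.08 against -0.37 on the log2 scale.

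**Figure D5:**
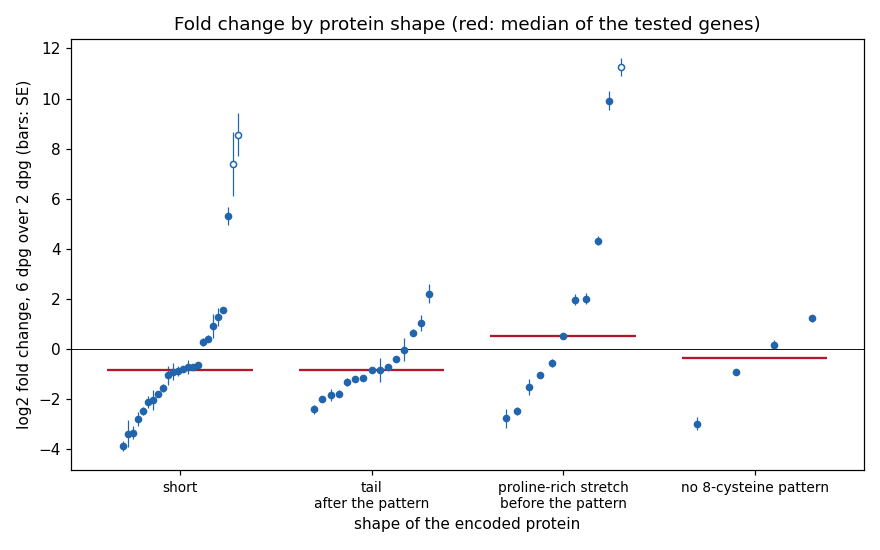
Fitted log2 fold change (6 over 2 dpg, bars SE) of each tested member by the shape of its protein, with the median of each shape in red. Open circles are 3 genes with 0 or 1 read at 2 dpg, whose fitted values depend on the prior count. The medians of the short and tailed shapes lie at -0.85 and -0.86 and that of the proline-rich shape at 0.51.

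The 3 glycolipid transfer proteins went in different directions. GLTP1 fell from 94.8 and 80.4 CPM to 45.7 and 46.1 CPM (log2 fold change -0.93, SE 0.13, adjusted p = 0.000336). GLTP3 rose from 10.2 and 12.8 CPM to 28.2 and 24.9 CPM (log2 fold change 1.21, SE 0.15, adjusted p = 0.000202). GLTP2 did not pass the threshold, at 5.65 and 6.03 CPM and then 7.32 and 5.68 CPM, and its ages overlap. Without these 3 genes, 51 tested members remained, of which 32 were lower and 15 higher with a median of -0.86.

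Of the 43 members that were not tested, 19 had 0 reads in all libraries, which allows up to 0.123 to 0.154 CPM per library, and 20 had 1 to 9 reads over all libraries. This limit need not hold where reads of a gene could be lost. AT1G48750, with 0 reads, lies fully within an opposite-strand gene. Of the 50-base words of AT1G45221, also with 0 reads, 87.8% occur in another gene. Those with 0 reads include LTP12, LTP15, LTPG4 and ATA7, of which LTP12 and ATA7 are known from anthers. The other 4 were AT1G05450, AT4G12360, LTP11 and AT3G52130, with up to 25 reads over all libraries. The filter on low counts left these 43 genes out of the test.

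In a description of promoters, 5 short motifs were searched on both strands of the 250 bases before the RefSeq starts of 96 members and of 27443 genes. TAAATGCA, the letters of the L1 box of epidermal genes, occurs in 2 members (LTP9 and AT3G29152) and in 1.57% of all promoters. Its variant TAAATGTA occurs in 2 members and in 2.999% of all. The core ACGTG occurs in 25 members (26.04%) and 22.9% of all promoters, TATAAA in 53 members (55.2%) and 47.3% of all, and TGTCTC in 6 members (6.25%) and 10.9% of all.

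Of 35 listed genes of wax and cutin synthesis and export, which supply the lipids of the cuticle, 29 were in the table and 26 were tested. Of these 14 fell and 4 rose, with a median log2 fold change of -0.45. Over all tested genes, 28.4% were called as lower and 28.3% as higher. The listed genes are long, with a median of 1899 bases against 631 for the members. With length-adjusted offsets 18 of the listed genes were lower and 3 higher. CER4, a fatty acyl reductase of wax synthesis, fell from 9.28 ± 1.184 to 1.49 ± 0.367 CPM (SD, n = 2; log2 fold change -2.62). HTH and BDG1, both needed for a normal cuticle, fell with log2 fold changes of -2.51 and -2.38. GPAT6, an acyltransferase of cutin synthesis, rose from 0.990 ± 0.0489 to 8.94 ± 2.63 CPM (SD, n = 2; log2 fold change 3.16), and the exporter ABCG13 and the acyl-CoA synthetase LACS1 rose with log2 fold changes of 2.42 and 0.57. The exporters ABCG11 and ABCG12, at log2 fold changes of -0.28 and -0.12, did not pass the threshold.

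Suberin genes make and export the monomers of the root and seed coat barrier. Of 13 listed 7 were in the table and 6 were tested. GPAT5, FAR5 and ABCG20 rose, with log2 fold changes of 1.95, 1.38 and 1.08, and none was called as lower. That is 50% of the tested suberin genes called, against 56.6% of all tested genes, of which 28.3% were higher and 28.4% lower. Without 2 dpg replicate 1, 5 suberin genes were called, 2 of them as lower.

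Markers of some cell types moved with age as well, where 28.3% of all tested genes were called as higher and 28.4% as lower. The 3 root hair markers summed to 83.3 to 105 FPKM at 2 dpg and 20.4 to 27.1 FPKM at 6 dpg, and all 3 fell. The root endodermis markers summed to 160 to 177 FPKM and then 51.4 to 58.9 FPKM, with 4 of 5 lower. The shoot epidermis markers summed to 552 to 590 FPKM and then 304 to 333 FPKM, with 2 of 4 lower, of which PDF1 had a log2 fold change of -1.90. Those of xylem and phloem summed to 63.1 to 67.3 FPKM and then 75.5 to 87.7 FPKM, with 2 of 4 higher and 1 lower. The phloem genes SUC2 and APL were higher, with log2 fold changes of 0.42 and 0.94. Of the xylem genes, XCP1 was lower at -1.11, and VND7 at -0.83 did not pass the threshold. The part of all these markers in the changes of the lipid transfer protein genes was not tested.

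In the authors' deposited table, 78 members have an adjusted p, of which 41 lie under 0.05, 14 as higher and 27 as lower at 6 dpg, against 32.8% of all 22473 genes with such a value. All 41 were called here too, and 8 further members were called here only.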

How the data were processed

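RNA-seq reads were counted per gene in 2 libraries at 2 dpg and 2 at 6 dpg, grouped by sample title. The members, the gene lists and the protein shapes were chosen with earlier results of these data known. The labels' protocols name TRIzol for the extraction of RNA and the NEBNext Ultra kit for the libraries. The submitters' processing notes name these tools without their roles: DESeq 1.18.0, HTSeq 0.6.1, TopHat2 2.0.12, Bowtie2 2.2.3 and CASAVA 1.8. No genome build or annotation is given in the sources used here. Per the file headers, the deposited table holds a read count per gene and library. These counts are whole numbers whose sums differ between libraries and were taken as raw. The authors' FPKM of each library, from the same deposited table, served for levels per gene length, and the authors' adjusted p-value per gene for a comparison of calls. A further 2 columns of read counts, whose headers name days that no sample label has, were not used.

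The rows held make up 79.9 to 81.0% of each library, so library totals were recovered from count, FPKM and gene length. Ages were compared over 16160 genes in R 4.3.3 with the quasi-likelihood test of edgeR 4.0.16, with TMM factors on the recovered totals, a filterByExpr minimum count of 10 and no term besides age. Genes with a Benjamini-Hochberg adjusted p under 0.05 were called. The biological coefficient of variation was 10.99%. A member that passed the filter only through the age at which it is high had to differ. The fit was tested on simulated counts. CPM are counts over the TMM-scaled totals. Intervals and floors cover counting error only.

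Coding and upstream sequences and 50-base words came from RefSeq TAIR10.1, in which all 97 members matched by locus. Of 26407 matched genes, 32.5% have both ends the same in the table and in TAIR10.1, so upstream windows follow RefSeq starts and cluster coordinates follow the table. Members named were those of the type 1, GPI-anchored and AZI1 lists, the glycolipid transfer proteins, members of clusters, the 6 with the highest FPKM, the 6 largest rises and falls of the rest, and those with 0 reads in both libraries of an age and at least 10 reads at the other. AT1G62500, AT3G22142, AT1G05450, AT4G12360, AT3G52130, LTP15, ATA7 and AT3G29152, with AT1G12100, AT2G37870, AT1G73890, AT1G73550, AT1G48750 and AT1G45221, were chosen after their values were seen. Alternatives were DESeq2 1.42.0, other size factors and totals, other filters, length-adjusted offsets, a replicate block and leaving out each library.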

Additional observations from a re-analysis of the deposited data

How the results depend on the processing

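The counts of lipid transfer protein genes called stayed within 1.5 times under all 13 alternatives, with 12 to 18 higher and 26 to 33 lower. Over 694 pairs of a tested member and an alternative, 643 kept both direction and call. Of the 54 members, 48 could be fitted in every alternative, and 35 of these kept direction and call in each, all of them called members. The median log2 fold change of the members was -0.78 with DESeq2, -0.89 with upper quartile factors, -0.78 with no low-count filter and -0.47 with length-adjusted offsets. Leaving out each library in turn gave medians from -0.87 to -0.79. In the same way the number of suberin genes called ranged from 3 to 5 and of those called lower from 0 to 2, and 1 was called lower with no low-count filter.

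LTPG3, which is not called, turned to 0.20 with length-adjusted offsets and to 0.14 and 0.29 without replicate 2 of 2 dpg and of 6 dpg, and ranged from -0.57 to 0.29 over the libraries left out. GLTP2 ranged from -0.036 without 6 dpg replicate 1 to 0.33. The fitted log2 fold changes of AT4G22485 and AT4G22505 lay between 8.80 and 14.03 and between 10.53 and 13.51 when a 2 dpg library was left out, because the 2 dpg reads of each lie in 1 library. AT1G12100, AT2G37870 and AT1G73890, called at adjusted p-values of 0.0405, 0.0426 and 0.0244, lost their calls in several alternatives, AT1G12100 and AT2G37870 whichever library was left out. For the other values the cause was not tested.

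Replicate numbers are shared between the ages. The deviations of same-numbered libraries had a correlation of -0.03 over genes. With 2 libraries per age this cannot tell whether same-numbered libraries shared a culture or a preparation. With the replicate block 32 members were lower and 15 higher, against 33 and 16 without it, and 1 suberin gene was called lower. With the block and length-adjusted offsets together, the members' median was -0.46 and the value of LTPG3 0.20. Depth limits the members with few reads: 43 could not be tested.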
